A study of Mus musculus with 6 samples.

Results

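Broad regions of open chromatin were examined in mouse macrophages treated with a bacterial stimulus and a glucocorticoid. DNase I hotspots, the intervals where sequenced DNase I cuts pile up, were merged across 6 libraries wherever they shared at least 1 bp. A merged region was taken as broad and shared when every library listed a hotspot in it and its merged width, end minus start, was at least 3000 bp. This gave 618 broad shared regions out of 59069 merged regions, or 1.05%, and out of 25091 regions listed by all 6 libraries, or 2.46%. The regions were thus chosen by measured values, the extents of the hotspots and their presence in all 6 lists, so widths, numbers of hotspots and cover are given below as a description.

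All cells were primary macrophages derived from bone marrow of C57BL/6J mice, with no genetic change named, and all received lipopolysaccharide (LPS) for 8 h. Of the 3 groups of 2 libraries, the first received LPS alone, the second was pre-treated with Dex before LPS, and the third was treated late with Dex. Dex is the glucocorticoid of the study, and its dose and the interval between treatments are not given in the labels, nor are the age and number of the mice. The study asked how the timing of a glucocorticoid relates to the chromatin of inflamed macrophages. Untreated cells were not analysed here. The labels do not say whether replicates are separate animals or cultures, and p-values and the spread between 2 libraries may then reflect technical variation alone. The cell type could not be checked against marker genes, since gene positions in mm9, the build of the files, were not used here. Regions are named by their mm9 positions for the same reason.

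DNase I cuts DNA most readily where nucleosomes are displaced or loosened, as they are at active promoters and enhancers. A typical accessible site spans little more than the footprint of a displaced nucleosome and its neighbours. A stretch of several kilobases without a break usually holds several such sites side by side, for example a promoter with adjoining enhancers or a dense enhancer cluster. In macrophages, lineage factors such as PU.1 keep many enhancers open, LPS opens further ones through NF-kB and AP-1, and the glucocorticoid receptor binds largely within chromatin that is already accessible.

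The lists differed in length, and this touches every result on breadth. They held 29347 to 51834 hotspots and covered 23.5 to 44.3 Mb. Both LPS lists were the longest, at 40.6 and 44.3 Mb, followed by replicate 2 of the pre-treated group (37.6 Mb) and of the late-treated group (36.2 Mb), then by replicate 1 of these groups (28.1 and 23.5 Mb). Total tag numbers are unknown. Nothing states that densities or z-scores are comparable between lists, so each region's density was compared by its percentile among the same 25091 shared regions in each library. A region was called higher or lower where the libraries of the groups compared did not overlap. With 2 libraries against 2, the smallest p of an exact two-sided permutation test is 0.333, and with 4 against 2 it is 0.133, so no single region could pass 0.05.

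The 618 regions together spanned 2.38 Mb, which was 4.54% of the 52.3 Mb of merged hotspots. Their median width was 3521 bp, where the median of all shared regions was 1119 bp. The upper quartile was 4084 bp, 68 were wider than 5000 bp, 26 wider than 6000 bp and 3 wider than 10000 bp. They lay on every chromosome listed, from 2 on chromosome Y to 55 on chromosome 11, and made up between 2.03% (chromosome 6) and 4% (chromosome Y, 2 of 50) of the shared regions of a chromosome.

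The widest lay at chrX:166426972-166438034 and was 11062 bp wide. It was listed as 2 hotspots in each LPS library, as 5 and 4 in the pre-treated libraries, and as 6 and 5 in the late-treated libraries. Its maximum density separated the libraries by replicate number and not by treatment. Replicate 1 of the LPS, pre-treated and late-treated groups had 329, 359 and 377, and replicate 2 of the same groups had 125, 151 and 147. The next were chr15:35222558-35233072 (10514 bp) and chr16:3231407-3241791 (10384 bp). Both had densities well below the top of the lists. The chromosome 15 region stood between the percentiles 30.3 and 52.3 of the shared regions, and the chromosome 16 region between 43.7 and 69.1. The other 7 of the 10 widest lay at chr2:127159314-127167259, chr16:84701948-84709450, chr9:55387181-55394518, chr5:143665243-143672215, chr6:116618232-116624903, chr7:109393178-109399781 and chr5:58105058-58111629, with widths from 7945 down to 6571 bp. All 618 regions had passed the limit of 3000 bp, so narrower shared regions do not enter the next value. Among the 618, width and density were only loosely tied, with a Spearman's rho of 0.0581 between width and mean percentile of maximum density. This is a correlation across regions of the same libraries, which are not independent replicates.

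The broad regions were covered most fully with LPS alone. Of the merged length, 91.1% and 95.9% was listed with LPS alone, 73.6% and 87.4% with Dex before LPS, and 66.9% and 85.7% with late Dex. Both LPS libraries lay above all 4 Dex libraries, while the Dex groups overlapped. The group means were 2.22 ± 0.08 Mb with LPS alone, 1.91 ± 0.231 Mb with Dex before LPS and 1.82 ± 0.317 Mb with late Dex (SD, n = 2 each). Within replicate number 1 and within number 2 the order was the same, LPS above pre-treated above late-treated. The 6 libraries stood in the same order by cover of the broad regions as by total length of their lists. Lists limited to the 29347 hotspots with the highest z-scores in each library gave similar differences. Relative to LPS alone these were -12.95 points with Dex before LPS and -16.6 with late Dex, over 583 regions chosen anew by merged width. In the full lists, LPS replicate 2 alone set the left edge of 277 regions and the right edge of 305. High cover with LPS is thus partly built into a choice by width, and the limited lists do not remove this. The limited lists still covered lengths in the same order, from 23.5 to 33.4 Mb. The difference between the Dex groups rested on single libraries. Pre-treated cover was higher by 4.17 percentage points of the merged length, but the difference was -2.79 when pre-treated replicate 2 was left out and -5.30 when late-treated replicate 1 was. Relative to LPS alone, the difference for pre-treated cells was -13.0 points, and -6.14 or -20.4 when their replicate 1 or 2 was left out. For late-treated cells it was -17.2 points, and -7.80 or -26.6 in the same way.

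**Figure D1:**
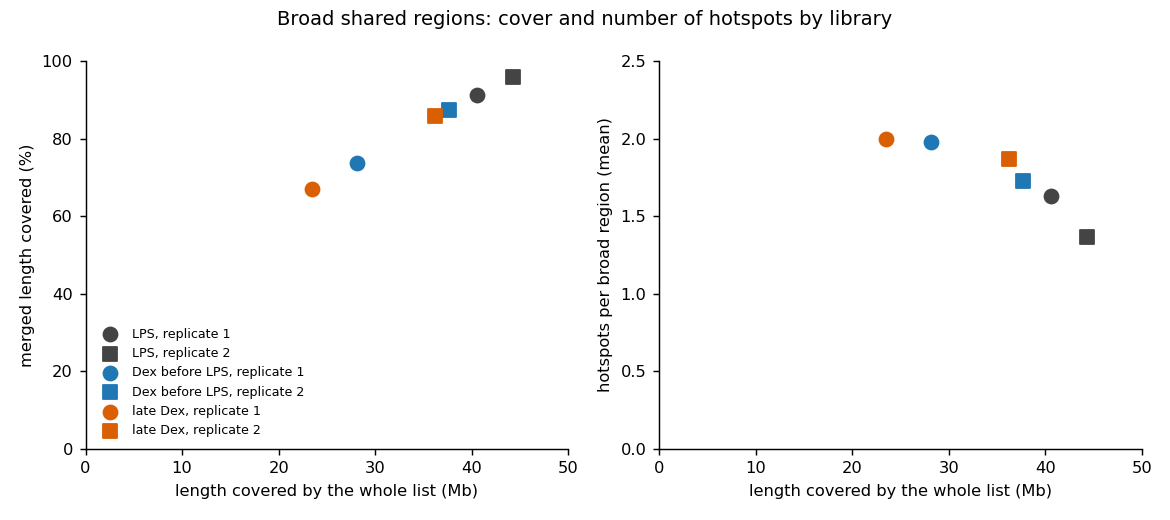
Share of the merged length of the 618 broad regions covered by each library's hotspots (left, %) and mean number of hotspots per broad region (right), plotted against the length covered by the whole list (Mb). Each point is 1 library, coloured by group and shaped by replicate number. Cover runs from 66.9% in the shortest list to 95.9% in the longest, while hotspots per region run from 1.998 down to 1.36.

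Region by region, 310 of the 618 (50.2%) were covered less in all 4 Dex libraries than in either LPS library, where 33.9% of all shared regions were, and 5 (0.809%) were covered more, where 1.46% of all shared regions were. Against LPS alone, 363 regions were covered less in both pre-treated libraries (58.7%, against 42.9% of all shared regions), and 414 in both late-treated libraries (67.0%, against 56.8%). More cover was seen in 13 (2.10%, against 5.06%) and 6 (0.971%, against 1.96%). These comparisons share the LPS libraries. Between the Dex groups, 56 were covered more with Dex before LPS (9.06%, against 19.2%) and 5 less (0.809%, against 2.64%). The median difference in cover was -10.4 percentage points with Dex before LPS and -15.3 with late Dex, beside -7.84 and -13.1 over all shared regions. Since hotspot extents chose the regions, nothing is read from these shares.

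The same stretch of chromatin was more often listed as a single unbroken hotspot with LPS alone. In the LPS libraries, 318 and 425 of the 618 regions consisted of 1 hotspot. With Dex before LPS 180 and 281 did, and with late Dex 176 and 240. Both LPS values lay above all 4 Dex values. Of the other shared regions, 96.04% and 96.49% were 1 hotspot with LPS alone. With Dex before LPS 94.46% and 95.25% were, and with late Dex 94.96% and 94.54%. The LPS libraries thus lay above all 4 Dex libraries there too, so this order is not particular to broad regions. The mean number of hotspots per broad region was 1.63 and 1.36 with LPS alone. It was 1.98 and 1.73 with Dex before LPS, and 1.998 and 1.87 with late Dex. Its order over the 6 libraries was the exact reverse of the order of list length. At most 7 hotspots lay in 1 region, in replicate 1 of each group at chr15:35222558-35233072. The count depends on how regions were joined. When hotspots up to 500 bp apart were merged, the number of broad regions rose to 1385 and the difference changed sign, to -0.0148 hotspots per region with Dex before LPS and -0.0433 with late Dex, from 0.357 and 0.438. When pre-treated replicate 1 was left out, the difference for that group was 0.237.

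Of the 618 regions, 39 (6.31%) were 1 hotspot in both LPS libraries and at least 2 in all 4 Dex libraries, where 0.434% of all shared regions were, and 0 showed the reverse, where 0.163% did. Hotspot extents chose the regions and the LPS lists were the longest, so nothing is read from these counts. More hotspots in every Dex library than in either LPS library were found in 50 regions (8.09%, against 0.478% of all shared regions, most of which were 1 hotspot in every list), and fewer in 0 (0.171% of all shared regions). Against LPS alone, 77 regions held more hotspots in both pre-treated libraries (12.5%, against 1.04%) and 10 held fewer (1.62%, against 0.375%). Late-treated cells had 97 with more (15.7%, against 1.27%) and 10 with fewer (1.62%, against 0.418%). Between the Dex groups, 11 held more with Dex before LPS (1.78%, against 0.391%) and 19 fewer (3.07%, against 0.367%). A further 67 regions were 1 hotspot in all 6 libraries. These unbroken regions had a median width of 3331 bp and a median percentile of maximum density of 88.8, and 30 of the 67 stood in the top 10%. At the other end, 76 regions were split in every library. Regions of at least 3000 and under 3500 bp held 1.36 hotspots on average in the LPS libraries and 1.67 in the Dex libraries, and those of 5000 bp and over held 1.88 and 2.65.

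Single hotspots as wide as the limit were most numerous with LPS alone, in the longest lists. Hotspots of at least 3000 bp numbered 282 and 410 with LPS alone, 87 and 248 with Dex before LPS, and 55 and 193 with late Dex. These are counts over whole lists of 48084 and 51834, 34646 and 44686, and 29347 and 44447 hotspots in the same order. Such a hotspot was present in all 6 libraries in 48 of the 618 regions, and in none in 131, whose width came only from joining overlapping hotspots of different libraries.

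Most breaks inside the regions were at most 500 bp long. The median gap between neighbouring hotspots of 1 library was 121 and 91.5 bp with LPS alone, 260 and 165 bp with Dex before LPS, and 302 and 181 bp with late Dex. Gaps over 500 bp numbered 33 of 389 and 7 of 224 with LPS alone. They numbered 158 of 603 and 72 of 451 with Dex before LPS, and 194 of 617 and 75 of 537 with late Dex. The longest gaps were 1924 and 1428 bp, 4820 and 1752 bp, and 3217 and 1803 bp in the same order. In each library 2 to 8 pairs of hotspots adjoined, at most 1 bp apart.

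Cover was lost at the outer edges and within the regions in every library. Unlisted flanks made up 5.65% and 2.64% of the merged length with LPS alone, 16.8% and 7.81% with Dex before LPS, and 21.9% and 8.62% with late Dex. Gaps between hotspots took 3.21% and 1.47%, 9.55% and 4.82%, and 11.2% and 5.64% in the same order. Flanks thus exceeded inner gaps in all 6 libraries. Only the hotspots of LPS replicate 2 reached the left edge in 277 regions and the right edge in 305, and only those of late-treated replicate 1 did in 2 and 2. Without replicate 2 of the LPS group, 469 regions would pass the width limit. At the centre of the regions, replicate 2 of every group covered 92.1% to 97.6% of them and replicate 1 of the Dex groups 79.9% and 76.5%. The loss in those libraries was therefore not limited to the edges.

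**Figure D2:**
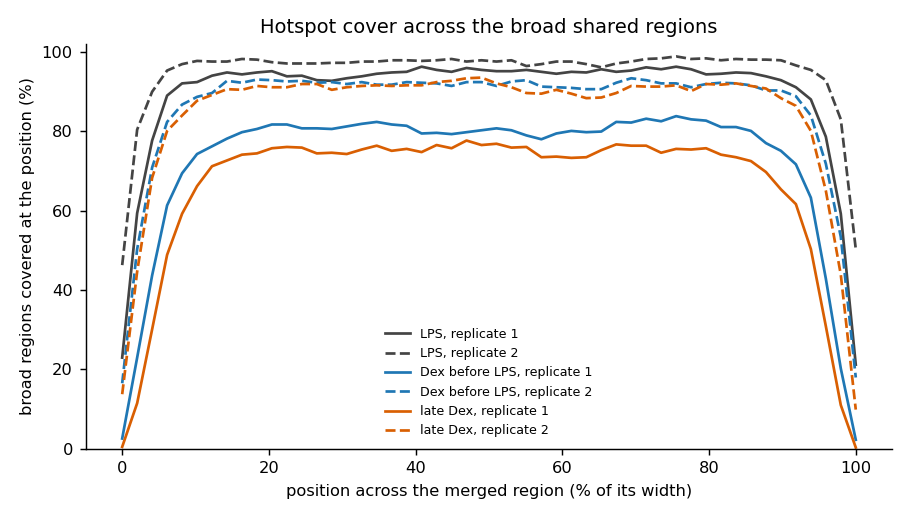
Share of the 618 broad regions (%) covered by a hotspot at each position across the merged region, from its left edge (0) to its right edge (100). Lines are single libraries, solid for replicate 1 and dashed for replicate 2. At the centre the LPS lines lie at 95.4% and 97.6%, and the lowest line is replicate 1 of the late-treated group at 76.5%.

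Summed over the regions, 62.9% of the 2.38 Mb was covered by all 6 libraries, close to the 63.7% found in the other 24473 shared regions. The core common to all 6 had a median length of 2396 bp and reached at least 3000 bp in 139 regions. In 3 regions no position was covered by all 6. The longest cores lay at chrX:166426972-166438034 (8971 bp), chr16:3231407-3241791 (6981 bp) and chr17:39979638-39985938 (6144 bp). The strongest hotspot lay over a common position in all 6 libraries in 534 regions (86.4%). Where a region was 1 hotspot in every library, that hotspot was the strongest by default. Among the 551 regions split in at least 1 library, the strongest hotspots shared a position in 467 (84.75%). The other shared regions were not examined for this. Positions covered by both LPS libraries and no Dex library made up 3.18% of the broad regions and 2.36% of the other shared regions. Positions covered by all 4 Dex libraries and no LPS library made up 0.145% and 0.184%. Of the first kind, 56.3% lay outside the outermost Dex hotspots and the rest between them, and 14 regions held at least 1000 bp of it. No region held as much of the second kind, whose largest stretch was 869 bp, at chr4:61940854-61945383.

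Broad regions were strongly but not uniformly accessible. Their median maximum density was 39.97 and 33.8 with LPS alone, 39.1 and 35.3 with Dex before LPS, and 39.6 and 34.98 with late Dex, where the other shared regions had 17.6 to 19.4. The median was higher in all 3 libraries numbered 1 than in all 3 numbered 2, and differed little by treatment. As a percentile among shared regions it lay between 79.3 and 80.7 in all 6 libraries. A region made of more hotspots and positions has more chances of a high maximum, so this level is a description and not a property tested against narrower regions. For average density, weighted by hotspot length, the median percentile was lower, between 69.7 and 71.8. The ratio of average to maximum density was 0.270 to 0.290 in broad regions and 0.368 to 0.396 in the others. More positions also tend to lower this ratio, so it too is only a description.

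The density ranged widely. In all 6 libraries, 98 broad regions stood in the top 10% of shared regions by maximum density, and 59 stood below the median. The regions at the extremes were picked after their values were seen. The highest was chr17:39979638-39985938, a single hotspot of about 6.3 kb in every library (merged width 6300 bp), with maximum densities of 591 and 679 with LPS alone, 559 and 697 with Dex before LPS, and 649 and 724 with late Dex. The groups overlapped, and its cover was 97.5% to 99.9% in all 6. No hotspot was removed here for lying in repeated sequence. Whether the highest densities come from such sequence was not tested. chr11:74642867-74646889 was also a single hotspot everywhere, at 140 and 119, 134 and 128, and 138 and 102.3 in the same order. The lowest was chr18:7002600-7006455, at 6.35 and 7.64 with LPS alone, 4.94 and 3.80 with Dex before LPS, and 4.40 and 7.53 with late Dex. It was covered to 60.9% and 90.2% in the LPS libraries, but to 16.9%, 6.54%, 7.24% and 41.3% in the Dex libraries.

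Among the shared regions, maximum density ranked higher in all 4 Dex libraries than in either LPS library in 26 of 618 regions (4.21%, against 9.12% of all shared regions) and lower in 65 (10.5%, against 9.49%). The median difference was -0.606 percentile points, beside -0.0777 over all shared regions. With log2 of the density over each list's own median in place of the percentile, 4.37% ranked higher (against 8.96%) and 9.71% lower (against 9.45%). Ranked instead among all hotspots of each list, 0.324% were higher (against 1.29% of all shared regions) and 29.9% lower (against 27.0%), in lists whose weak ends differ. Leaving out a library of a pair loosens the rule by construction. Without replicate 1 of the LPS group, 20.3% ranked higher (against 23.9%) and 26.4% lower (against 24.8%). Without LPS replicate 2 the shares were 12.4% (against 18.2%) and 19.6% (against 18.4%), and without late-treated replicate 2 17.95% ranked lower (against 14.0%). Average density gave 33 higher (5.34%, against 9.62%) and 75 lower (12.1%, against 9.62%), and with each library left out in turn 6.14% to 17.6% (against 12.0% to 23.8%) and 14.2% to 28.4% (against 11.9% to 24.6%). This direction turned with the highest average density of a region's hotspots in place of the weighted mean, to 8.25% higher (against 9.62%) and 6.80% lower (against 9.48%).

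Pre-treated cells compared with LPS alone had 57 broad regions with a higher rank of maximum density (9.22%, against 17.8% of all shared regions) and 148 with a lower one (23.9%, against 18.6%). Late-treated cells compared with LPS alone had 65 higher (10.5%, against 16.7%) and 106 lower (17.2%, against 17.8%). The lower share with late Dex was thus near that of all shared regions, and the higher shares lay below it in both comparisons. Whether the broad regions differ from the others in this was not tested. By average density, pre-treated cells had 57 higher (9.22%, against 18.4%) and 149 lower (24.1%, against 18.9%), and late-treated cells 69 higher (11.2%, against 17.1%) and 117 lower (18.9%, against 18.1%). With the highest average density the late-treated shares turned to 18.4% higher (against 17.1%) and 10.7% lower (against 17.9%). Both comparisons use the same LPS libraries. With each library of a comparison left out in turn, the lower share was 37.5% to 47.3% for the pre-treated and 29.4% to 41.7% for the late-treated group, and the higher share 18.8% to 29.1% and 23.0% to 34.7%. Over all shared regions, the lower share was then 30.9% to 37.1% and 29.9% to 37.4%, and the higher share 30.6% to 37.2% and 29.0% to 37.0%. The late-treated lower share was 34.3% (against 35.3%) without LPS replicate 1 and 29.4% (against 29.9%) without LPS replicate 2. Between the Dex groups, 34 regions ranked higher with Dex before LPS (5.50%, against 13.3%) and 89 lower (14.4%, against 13.6%). These became 21.2% to 27.95% and 33.3% to 39.4% when 1 of the 4 Dex libraries was left out. All shared regions then had 30.8% to 33.3% and 30.5% to 33.5%. By average density 38 ranked higher (6.15%, against 13.5%) and 83 lower (13.4%, against 13.9%). Ranked among all hotspots of each list, pre-treated cells had 1.29% higher than LPS alone (against 4.38%) and 43.4% lower (against 38.9%). Late-treated cells had 0.971% higher (against 1.94%) and 42.7% lower (against 44.0%). Pre-treated against late-treated cells had 10.8% higher (against 15.1%) and 2.91% lower (against 3.78%).

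**Figure D3:**
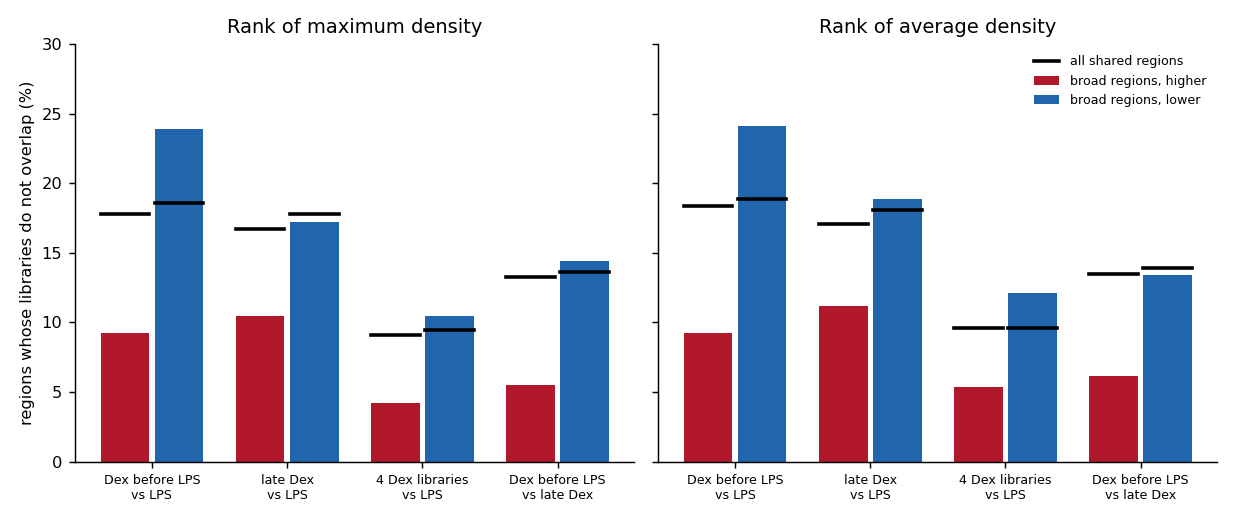
Share of the 618 broad regions (%) whose libraries did not overlap between groups, ranking higher (red) or lower (blue) by maximum density (left) and average density (right). Black lines give the same share over all 25091 shared regions. The red bars lie below their lines in all 4 comparisons, while the blue bars lie near or above them, up to 23.9% for maximum density with Dex before LPS.

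Of the 65 broad regions that ranked lower in all 4 Dex libraries, 47 (72.3%, against 65.5% of all shared regions that ranked lower) were also covered less in all 4. The median cover of the 65 was 96.2% with LPS alone and 71.2% with Dex, beside 94.4% and 72.9% over all such shared regions. Of the 26 that ranked higher, 6 (23.1%, against 9.66%) were covered less. Only 1 was covered more, where 13.2% of all shared regions that ranked higher were. The medians of the 26 were 88.2% and 82.0%, beside 85.1% and 84.4%. Of the 527 in neither set, 257 (48.8%, against 32.9%) were covered less. Density and extent come from the same hotspots, so these measures are not independent.

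The largest rise in rank was at chr8:36185998-36189118, 3120 bp wide. Its maximum density was 19.1 and 13.2 with LPS alone, 48.2 and 22.8 with Dex before LPS, and 44.4 and 33.2 with late Dex. All 4 Dex libraries lay above both LPS libraries, at percentiles of 58.5 to 84.9 against 50.05 and 27.8. It was also the region with the largest gain of cover, 47.3% and 56.4% with LPS alone and 63.1% to 98.7% with Dex. In the LPS libraries it consisted of a pair of separate hotspots, which replicate 2 of the late-treated group listed as 1 hotspot of 3078 bp. Next came chr2:165142070-165145447, at percentiles of 32.9 and 27.8 with LPS alone and 50.8 to 61.3 with Dex. At chr18:62203569-62207337 the LPS libraries agreed closely, at 49.1 and 48.9, and the Dex libraries lay between 68.1 and 74.8. chr17:49595402-49598476 rose from near the bottom, 0.957 and 7.70, to 13.8 and 33.7 with Dex before LPS and 22.2 and 32.8 with late Dex. chr7:53971927-53975791 stood at 34.3 and 57.7 with LPS alone and at 59.6 to 71.4 with Dex, and lay beside another broad region at chr7:53965395-53971720. With hotspots up to 500 bp apart merged, the chromosome 7 region was joined with that neighbour. In the regions merged this way over the chromosome 2 and chromosome 7 regions, the groups overlapped. The mean differences were 2.90 and 1.28 percentile points in place of 27.2 and 20.2, so the second describes a larger region. Ranked among all hotspots of each list, the groups overlapped at all of these 5 but the chromosome 8 region.

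The largest fall in rank was at chr13:99461018-99464341. Its maximum density was 22.1 and 24.99 with LPS alone, 11.9 and 13.3 with Dex before LPS, and 11.6 and 15.5 with late Dex, and its percentile fell by 33.4 points on average. The LPS libraries covered 91.0% and 93.6% of it and the Dex libraries 52.4% to 65.4%. chr16:97666300-97671035 was a single hotspot over 99.0% and 96.8% of its width with LPS alone, and covered to 21.2% and 48.8% with Dex before LPS and to 44.0% and 62.3% with late Dex. Its maximum density was 26.4 and 23.95 with LPS alone, 11.1 and 15.6 with Dex before LPS, and 15.2 and 21.7 with late Dex. This region held the longest stretch listed by both LPS libraries and no Dex library, 1637 bp. It also ranked lower with Dex before LPS than with late Dex, at 23.8 and 35.2 against 41.8 and 56.9. chr9:55387181-55394518, among the 10 widest, stood at 64.5 and 65.8 with LPS alone and at 38.3 to 50 with Dex. chr19:29573275-29576290 and chr8:95376750-95380841 followed, with mean differences of -21.2 and -20.9 percentile points. The groups overlapped in both when the z-score was ranked in place of maximum density.

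**Figure D4:**
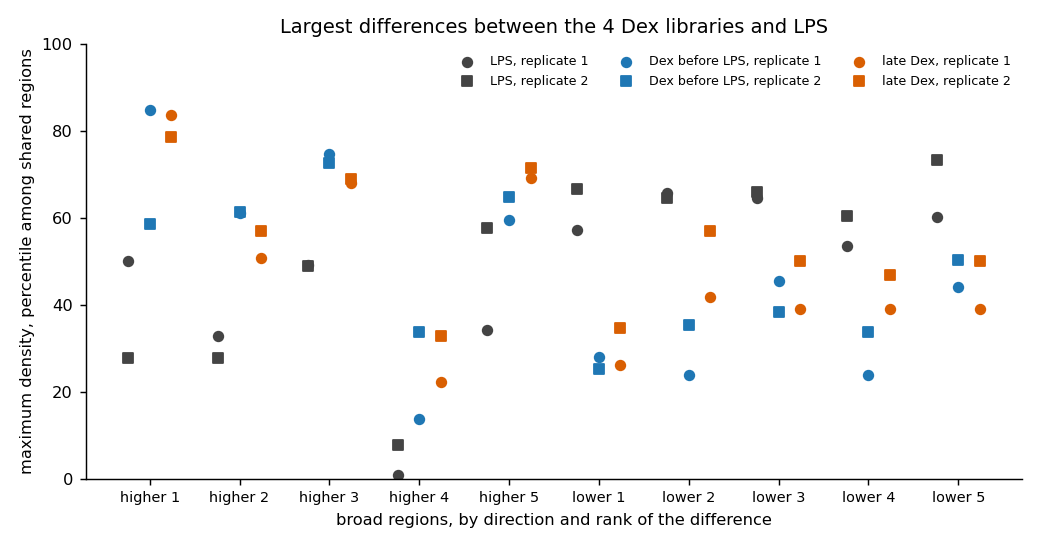
Percentile of maximum density among the 25091 shared regions in each library, for the 5 broad regions with the largest rise (higher 1 to 5) and the 5 with the largest fall (lower 1 to 5) in all 4 Dex libraries against LPS. Points are libraries, coloured by group and shaped by replicate number, and the regions are in the order in which the text gives them. The regions were picked for this difference, which reached 37.5 and -33.4 percentile points.

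Between the Dex groups the largest differences were smaller. chr13:22111744-22114850 ranked lower with Dex before LPS, at 31.6 and 30.4 against 56.8 and 51.5 with late Dex, and stood at 36.9 and 44.0 with LPS alone. chr3:95789054-95792420 stood at 35.0 and 49.2 with Dex before LPS and at 65.9 and 62.6 with late Dex, beside 60.1 and 61.3 with LPS alone. Its maximum density was 13.6 and 19.4, 25.2 and 23.9, and 23.4 and 22.6 in that order, so the late-treated libraries lay near the LPS libraries. The next were chr16:97666300-97671035, given above, with a mean difference of -19.8, then chr1:151686345-151689908 and chrX:163766005-163769015, with -17.1 and -16.0. In the other direction, chr15:66642865-66646288 stood at 68.8 and 85.7 with Dex before LPS and at 65.3 and 60.4 with late Dex, where the LPS libraries had 58.8 and 70.6. chr4:108130771-108133775, chr17:4993447-4997785, chr11:51668855-51672886 and chr6:51119869-51123703 came next, with mean differences of 13.0, 12.3, 9.25 and 9.04. When LPS replicate 1 or pre-treated replicate 1 was left out and regions were merged anew, the chromosome 11 region broke apart. Its wider right-hand part, which lacks the strongest hotspot of the region, then had differences of -6.14 and -11.1. These values are therefore not a second measure of the whole region. Ranked among all hotspots of each list, the Dex groups overlapped in 7 of these 10 regions, all but chr13:22111744-22114850, chr4:108130771-108133775 and chr17:4993447-4997785, and at the chromosome 17 region they overlapped on the log2 scale. With z-scores ranked instead, they overlapped at the chromosome 15 and chromosome 11 regions.

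The 5 regions covered more in all 4 Dex libraries were 0.809% of the broad regions, below the 1.46% of all shared regions. Besides chr8:36185998-36189118 these were chr17:24102665-24106013, chr7:17643096-17646447, chr2:163468036-163471991 and chr4:61940854-61945383. The chromosome 17 region was a single hotspot in every library. It spanned 33.3% and 34.1% of the merged width with LPS alone, 43.6% and 100.0% with Dex before LPS, and 40.4% and 78.2% with late Dex. Its maximum density was 50.2 and 62.5, 79.1 and 90.4, and 73.2 and 87.2 in the same order, but its percentiles overlapped, at 86.6 and 95.7 with LPS alone and 93.9 to 98.8 with Dex. The full width was thus reached in 1 library. The chromosome 7 region was covered to 62.4% and 52.0% with LPS alone and to 74.9% to 99.6% with Dex, while its maximum density of 43.5 and 46.5 with LPS alone lay within the 39.4 to 49.7 of the Dex libraries. Its cover separated the treatments while its maximum density did not. The mean gain of cover at the chromosome 2 region, 17.1 percentage points, was 2.39 without replicate 2 of the late-treated group, and the groups then overlapped. They also overlapped at the chromosome 17 and chromosome 4 regions when hotspots up to 500 bp apart were merged.

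The largest losses of cover were at weak or moderate regions. chr5:67487651-67492774 was covered to 93.3% and 98.6% with LPS alone, to 17.0% and 65.6% with Dex before LPS, and to 5.37% and 58.1% with late Dex. Its maximum density was at most 9.36, and it stood at percentiles of 1.02 to 12.2. chr3:95789054-95792420 was a single hotspot of 3277 and 3337 bp with LPS alone. In the pre-treated libraries hotspots of 634 and 840 bp remained near its right end, and in the late-treated libraries ones of 1380 and 1700 bp, with a short hotspot at the left end in replicate 2 of each. chr4:109651834-109655364 was covered to 94.5% and 88.2% with LPS alone and to 20.8% to 42.7% with Dex, and chr11:83336794-83341260 to 98.8% and 100.0% with LPS alone and to 21.4% to 81.2% with Dex. At the chromosome 5, 3 and 11 regions, replicate 1 of each Dex group was covered less than replicate 2. At the chromosome 4 region it was covered more in both groups, and at chr18:7002600-7006455 more in the pre-treated group. Across the broad regions, mean percentile of maximum density and mean cover had a Spearman's rho of 0.441, over 618 regions of the same libraries.

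**Figure D5:**
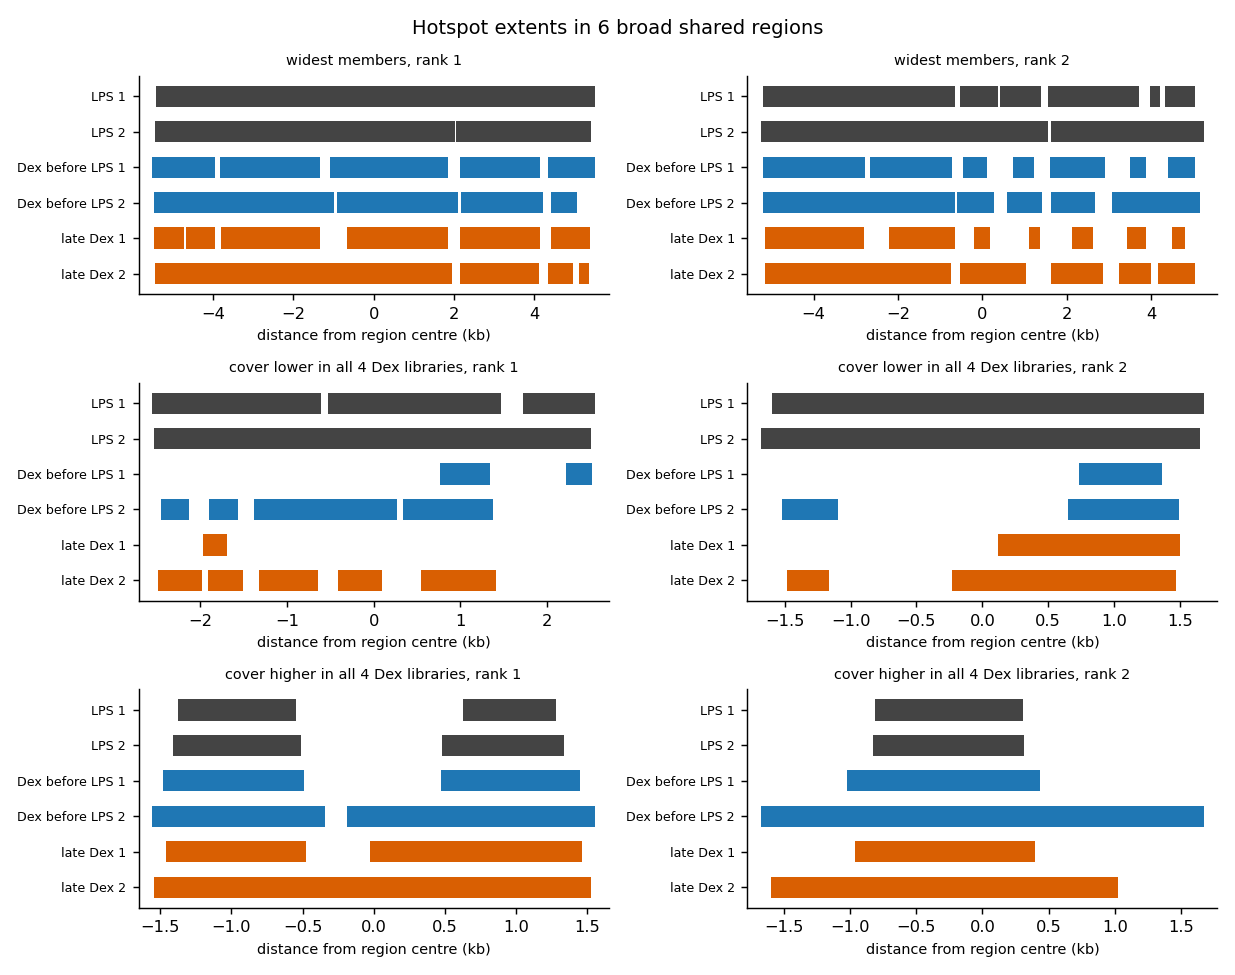
Extents of the hotspots of each library (rows) in 6 broad regions, by distance from the region's centre (kb). The top row shows the widest 2 regions, the middle row the 2 with the largest loss of cover in all 4 Dex libraries and the bottom row the 2 with the largest gain. In the middle left region, cover was 93.3% and 98.6% with LPS alone and at most 65.6% with Dex.

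Broad regions were mostly solitary. Another broad region lay within 10 kb of 32 of the 618 and within 100 kb of 82. Only 2 runs held 3 of them with gaps of at most 100 kb, at chr12:56565348-56594530 (29.2 kb) and chr12:85514833-85560755 (45.9 kb). Some pairs nearly touched. At chr11:86391617-86401423, 2 regions filled 9793 bp of 9.81 kb, separated by 13 bp, the smallest gap of all. The pair at chr4:109647472-109655364 was weak, with a median percentile of 12.8, while those at chr4:124791624-124803178 and chr8:73131824-73143840 stood at 94.2 and 92.4.

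At the width limit there was no break. The 42 broad regions less than 50 bp above it had a median percentile of 77.5, a mean of 1.52 hotspots and a mean cover of 83.2%, and the 49 shared regions up to 50 bp below it had 80.03, 1.54 and 82.9%. Another 7 merged regions reached 3000 bp but were missing from at least 1 list. One, chr13:55102857-55106875, was listed by both LPS libraries alone, over 98.1% and 94.5% of its 4018 bp at maximum densities of 11.7 and 12.8. The regions at chr2:164246460-164249553 and chr7:107648944-107652334 showed the opposite. Replicate 2 of the LPS group listed neither, and replicate 1 covered 19.9% and 17.5% of them at a maximum density of 6.35. In the Dex libraries the first was covered to 62.3% to 96.1% at densities of 18.9 to 26.2, and the second to 79.1% to 100.0% at 14.0 to 17.8. The other 4 were weak in every list, with maximum densities up to 9.74.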

How the data were processed

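Per the labels' protocols, DNase I (80 U/ml, 3 min) released fragments of 100 to 500 bp from nuclei, which were read as single ends of 51 bp. The authors deposited 1 hotspot list for each library. Per the submitters' processing notes the build is mm9 and CASAVA was used. Which aligner and hotspot caller were used, and at which threshold, is not given in the sources used here. Maximum and average tag density are deposited signal values, the deposited z-score is a score of the hotspot, and its deposited p-value was not used. All are named per the file headers. Positions were read as closed intervals, printed as the files give them, and only hotspot positions and signal entered the results, with z-scores in alternatives. Hotspots were merged and compared in Python 3.11.15 with pandas 2.3.3 and numpy 2.4.6, and the merging was checked against bedtools and on simulated lists.

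A region's maximum density is the highest of its hotspots, and its average density is the mean weighted by hotspot length. Named regions are the 10 widest, the 5 with most hotspots in a library, and the 5 with the largest difference per direction, among regions whose libraries do not overlap, in rank of maximum density (4 Dex libraries against LPS, and between Dex groups) and in cover (4 Dex libraries against LPS). Other named regions were picked after their values were seen. The members and rules were chosen with earlier results of these data known. No genome or annotation of mm9 was used, so no gene or sequence is given. Planned lists of genes, cell type markers and motifs, which need one, were not used. Alternatives are given in the closing section. Depth is unknown and limits the precision in a way that cannot be stated.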

Additional observations from a re-analysis of the deposited data

How the results depend on the processing

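Hotspot lists carry no depth, so what depth limits cannot be stated. With lists of equal length or a common minimum z-score, the latter chosen after seeing the data, every summary value kept its direction and stayed within the spread or within 1.5 times, as did the summary shares with z-scores or log2 density ranked, the last also chosen after seeing the data. With lists of equal length or a common minimum z-score, regions were again chosen by hotspot extents, so cover was not freed from that choice. A width of at least 2000 bp gave 2862 regions. Differences in hotspots per region were 0.163 (pre-treated against LPS), 0.198 (late-treated against LPS) and 0.180 (4 Dex libraries against LPS). By maximum density 8.46% ranked higher with Dex before LPS than with late Dex (against 13.3% of all shared regions) and 12.1% lower (against 13.6%). A width of at least 4000 bp gave 173 regions and differences in hotspots per region of 0.558, 0.685 and 0.621. By maximum density 6.36% of these ranked higher than LPS with late Dex (against 16.7% of all shared regions) and 23.7% lower (against 17.8%). In the 4 Dex libraries 2.31% ranked higher (against 9.12%) and 13.9% lower (against 9.49%). By average density 5.78% ranked higher with Dex before LPS (against 18.4%) and 33.5% lower (against 18.9%). In the 4 Dex libraries these were 2.89% (against 9.62%) and 17.3% (against 9.62%). Merging hotspots up to 500 bp apart gave 1385 regions. The differences in hotspots per region then changed sign, to -0.0148, -0.0433 and -0.0291 against LPS and 0.0285 between the Dex groups. By average density 14.5% (pre-treated) and 8.16% (4 Dex libraries) ranked higher, and 19.9% and 9.39% lower. Shares over all shared regions were not computed with this merging, so nothing is read from these. That setting joins hotspots across short gaps by construction. The highest average density of a region in place of the weighted mean gave 18.4% higher (against 17.1% of all shared regions) and 10.7% lower (against 17.9%) for late-treated cells. For the 4 Dex libraries it gave 8.25% (against 9.62%) and 6.80% (against 9.48%).

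Ranked among all hotspots of each list, the shares higher and lower by maximum density were 1.29% and 43.4% (pre-treated), 0.971% and 42.7% (late-treated), 0.324% and 29.9% (4 Dex libraries), and 10.8% and 2.91% (between the Dex groups). By average density they were 1.62% and 55.8%, 0.971% and 57.6%, 0.324% and 44.3%, and 14.4% and 2.59%. Over all shared regions the shares by maximum density were 4.38% and 38.9%, 1.94% and 44.0%, 1.29% and 27.0%, and 15.1% and 3.78%. By average density all shared regions had 4.43% and 40.4%, 1.83% and 46.0%, 1.28% and 28.6%, and 15.6% and 3.9%. The cause was not tested.

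Replicates share only a number, which the labels tie to no batch. Deviations of same-numbered libraries correlated at 0.396, 0.382 and 0.435 for maximum density over the 3 pairs of groups, and at 0.120, 0.113 and 0.316 for cover. With the replicate number as a block, where both pairs need only differ in one direction, the shares higher and lower by maximum density were 23.5% and 41.4% (pre-treated), 25.1% and 31.7% (late-treated), 13.8% and 22.8% (4 Dex libraries), and 21.5% and 35.4% (between the Dex groups). By average density under the block they were 22.5% and 43.7%, 27.2% and 33.0%, 13.6% and 25.7%, and 21.4% and 34.3%. Shares over all shared regions were not computed under the block, so nothing about the broad regions is read from these. Mean differences in cover and hotspots are the same under the block.

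With each library left out in turn and regions chosen anew, their number ran from 469 to 619. The difference in cover ran from -20.4 to -6.14 points (pre-treated), -26.6 to -7.80 (late-treated), -18.5 to -11.3 (4 Dex libraries) and -5.30 to 13.6 (between the Dex groups). Hotspots per region differed by 0.237 to 0.530, 0.374 to 0.636, 0.354 to 0.583 and -0.200 to 0.0400 in the same order. The share higher by maximum density ran from 8.21% to 29.1%, 9.22% to 34.7%, 5.04% to 20.3% and 5.33% to 27.95%. The share lower ran from 23.9% to 47.3%, 17.0% to 41.7%, 12.6% to 26.4% and 14.0% to 39.4%. Over all shared regions the share higher ran from 17.8% to 37.2%, 16.8% to 37.0%, 11.4% to 23.9% and 13.3% to 33.3%. Their share lower ran from 18.6% to 37.1%, 17.8% to 37.4%, 11.9% to 24.8% and 13.6% to 33.5%. By average density the share of broad regions higher ran from 8.21% to 30.6%, 9.74% to 38.1%, 6.14% to 17.6% and 6.46% to 33.3%. The share lower ran from 23.8% to 45.9%, 18.9% to 41.7%, 14.2% to 28.4% and 12.8% to 40.3%. All shared regions had 18.4% to 37.5%, 17.1% to 37.3%, 12.0% to 23.8% and 13.5% to 33.9% higher. They had 18.9% to 37.2%, 18.1% to 37.3%, 11.9% to 24.6% and 14.0% to 33.9% lower. With 1 library left in a group, its values overlap the other group less often by construction. Of the named regions, chr11:51668855-51672886 ran from -11.1 to 9.18 between the Dex groups. Both negative values, -11.1 without pre-treated replicate 1 and -6.14 without LPS replicate 1, came from its right-hand part alone. The region then broke apart, and that part lacks its strongest hotspot.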
